A study of Oryza sativa with 4 samples.

Results

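In rice spikelets at anther stage 12, 200 genes gave a bright array signal in ZH11 plants and little or none in plants silenced for OsCPK21, although all of them had been dim in both genotypes at stage 9. They are called the lost genes here, as a name for the array pattern. They were chosen from 17905 genes, each read by its brightest probe set (by mean log2 signal of the 4 arrays). A lost gene had a signal of at most 71 on both stage 9 arrays, at least 568 in ZH11 at stage 12 and below 142 in RNAi at stage 12. The limits used all 4 arrays, so the stage and genotype differences of the lost genes follow from how they were picked, and they are described without a test.

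Rice pollen matures in the last stages of anther development. The tapetum, the cell layer that feeds the young microspores, has broken down by then, and the grain fills with starch and stores the messenger RNA it will need to germinate and grow a tube. Genes switched on late in pollen include wall-loosening expansins, regulators of the actin filaments along which the tube moves its cargo, and parts of the calcium signalling system that steers tip growth. Calcium-dependent protein kinases carry a calcium-binding region and a kinase in the same protein, and OsCPK21 is a member of that family.

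The 4 samples were spikelets of OsCPK21-RNAi plants at stage 12, of ZH11 at stage 12, of OsCPK21-RNAi plants at stage 9 and of ZH11 at stage 9, with 1 Affymetrix Rice Genome Array each. ZH11 (Zhonghua 11) is the cultivar from which the RNAi plants were made, so both genotypes share that background. All plants were field-grown under natural conditions without treatment. The labels name 3 RNAi lines, and neither the promoter of the construct nor any pooling of lines was given in the sources used here. With 1 array per group the spread between samples is unknown, so no difference was tested and how precise a value is depends on that small number of arrays. A signal of 71 served as the floor: lower signals were raised to it before a ratio was taken, they have no order among themselves, and a fold against such a signal is written "at least".

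The titles, descriptions and source names give the genotypes used here, and the genotype characteristic of every sample gives the opposite one. The target gene went with the titles: OsCPK21 had a signal of 17.6 in RNAi and 2719 in ZH11 at stage 12, and 206 in RNAi and 1940 in ZH11 at stage 9. If the characteristic were right, every direction between genotypes below would turn. The median signal over all probe sets was 75.2 in RNAi and 83.8 in ZH11 at stage 12. The 3-prime to 5-prime ratio of the actin control, a measure of RNA integrity, was 16.9 in RNAi and 20.0 in ZH11 at stage 12, and that of the Gapdh control 1.88 in RNAi and 2.08 in ZH11. At stage 9 the actin ratio was 8.75 in RNAi and 7.83 in ZH11, and the Gapdh ratio 1.65 in RNAi and 1.56 in ZH11. RNA integrity by this measure moved with the stage by which the genes below were chosen, and its part in their values was not tested.

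At stage 12 the lost genes had signals from 5.73 to 139 in RNAi, with a median of 32.9, and from 571 to 16584 in ZH11, with a median of 2636. At stage 9 they had medians of 29.3 in RNAi and 33.3 in ZH11. Spikelets hold many cell types, and fewer cells of a type cannot be told apart from less RNA per cell in any of these values.

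In RNAi at stage 12, 175 of the 200 lost genes (87.5%) did not rise above the floor, although the limit would have let them reach nearly 142. For these the ratio is a bound, and the bounds ran from at least 8.41-fold to at least 234-fold lower in RNAi. The other 25 were measured on both arrays and were 4.53-fold to 124-fold lower, with a median of 33.4-fold. Over all 200, with bounds counted at their value, the median log2 ratio of RNAi over ZH11 was -5.15, which is 35.5-fold lower.

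A gene counts as lower or higher here where the genotypes differ 2-fold or more and its brighter signal exceeds the floor. Over the 15970 genes above the floor on either stage 12 array, 7.04% were lower in RNAi and 2.86% higher, 1124 and 456 genes. With arrays scaled to a common median these were 963 and 674 genes. The limits made all 200 lost genes lower, so that count says nothing beyond the choice. The array held 284 genes at least 10-fold lower in RNAi, and 186 of them were lost genes. At 50-fold or more the lost genes were 70 of 86, and at 100-fold or more 22 of 25. The limits act on the same stage 12 signals, so these counts follow largely from the choice as well.

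A wider set shows what the RNAi limit did. Without it, 321 genes were at most 71 on both stage 9 arrays and at least 568 in ZH11 at stage 12. These are called late-on genes. Their RNAi signals at stage 12 were spread unevenly. At or below 71 there were 175 genes, above 71 and below 142 there were 25, from 142 to below 284 there were 17, and from 284 to below 568 there were 17. From 568 to below 1136 there were 39, and at 1136 or more 48. The middle ranges held the fewest genes: 62.3% of the late-on genes were lost, 10.6% lay between the limits and 27.1% (87 genes) were at or above 568 in RNAi as well and are called kept.

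**Figure D1:**
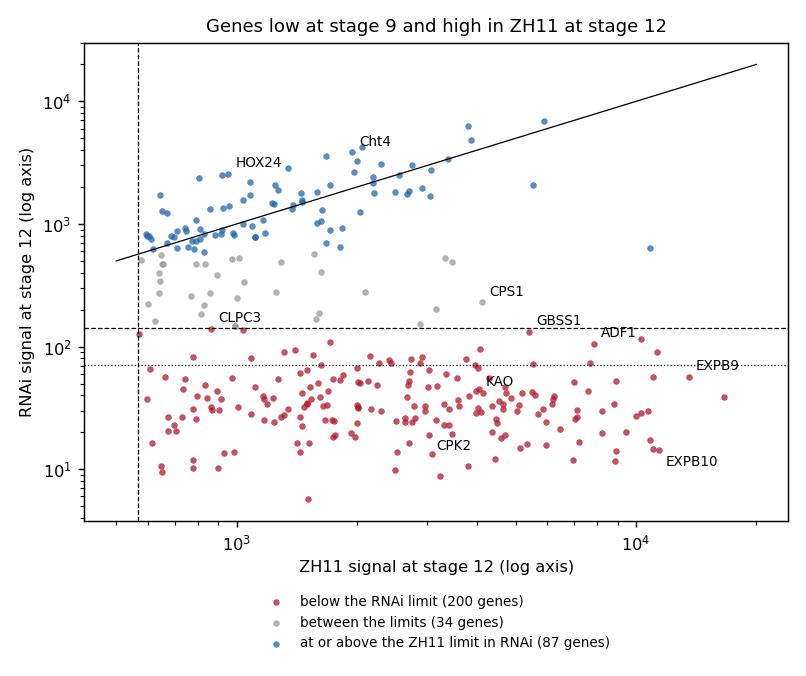
Signal in RNAi (vertical, log axis) against ZH11 (horizontal, log axis) at stage 12 for the 321 late-on genes, 1 point per gene, with the solid line at equal signal, dashed lines at the limits of 568 and 142 and a dotted line at the floor of 71. The 200 lost genes lie mostly below the dotted line whatever their ZH11 signal, the 87 kept genes lie around the solid line, and 34 genes lie between.

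Most kept genes were within 2-fold between genotypes. Their median signal at stage 12 was 1318 in RNAi and 1182 in ZH11, with a median log2 ratio of 0.06. Of the 87, 75 were within 2-fold, 8 were higher and 4 were lower in RNAi, and 49 had the higher signal in RNAi. All 87 were higher at stage 12 than at stage 9 in RNAi, as their limits require, and 15.0% of 16060 genes were so over the array. One kept gene, LOC4337874, came close to the lost genes, with 640 in RNAi and 10818 in ZH11.

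The share of late-on genes that were lost differed with the ZH11 signal. Probe sets differ in brightness, so the ranges order signals and not transcript levels. Among those with a ZH11 signal from 568 to below 1136, 37 of 101 (36.6%) were lost. The share was 59.8% (55 of 92) from 1136, 77.0% (57 of 74) from 2272 and 95.1% (39 of 41) from 4544 to below 9088. At 9088 or more it was 92.3%, 12 of 13, the exception being LOC4337874. The median RNAi signal of the lost genes lay between 29.3 and 33.9 in all 5 ranges. These medians are below the floor, where signals have no order, and the RNAi limit caps the signals behind them. They therefore cannot show whether the RNAi signal of the lost genes followed the ZH11 signal. The RNAi limit is a fixed signal, and a gene with a low ZH11 signal needs a smaller fold to fall below it.

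**Figure D2:**
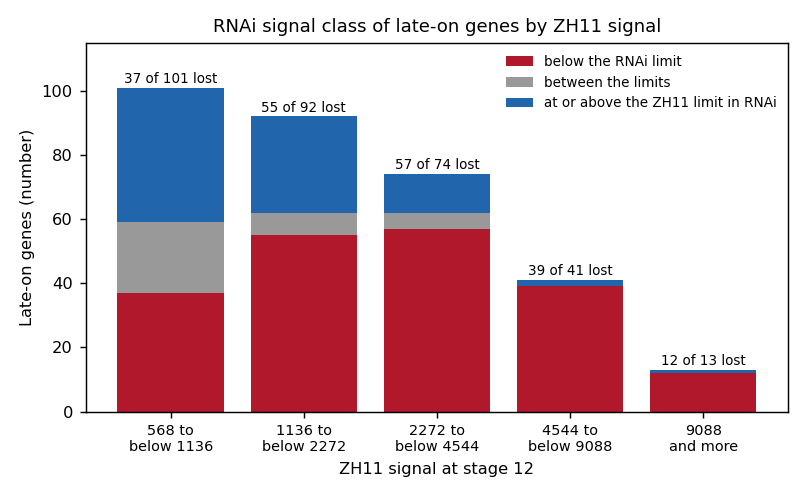
Number of late-on genes (vertical) by ZH11 signal at stage 12 (horizontal, ranges that double), coloured by RNAi signal: below 142 (lost), between the limits, and 568 or more (kept). The lost genes were 37 of 101 in the range of lowest signal, and 39 of 41 and 12 of 13 in the ranges of highest signal.

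Exchanging the genotypes in the limits gave no counterpart. By the RNAi signal at stage 12, 131 genes were late-on, and 0 of them were below 142 in ZH11. The gene with the lowest ZH11 signal among them was the chitinase gene Cht10, with 592 in RNAi and 213 in ZH11.

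Of the 200 lost genes, 29 have a name in the gene table and 171 only a locus number. That is 14.5% named, against 13.6% over the array, so most of the lost genes can be listed here but not described by role. The highest ZH11 signal was that of LOC4347012, which has no name: it had 39.1 in RNAi and 16584 in ZH11 at stage 12, and 22.4 in RNAi and 24.1 in ZH11 at stage 9. The 10 highest ZH11 signals also include those of LOC4339485, LOC4331323, LOC4335467, LOC4342864, LOC4348583, LOC4349048 and LOC4331023, from 10261 to 11272. LOC4339485 was above the floor in RNAi with 91.0, which made it 124-fold lower, and LOC4349048 was too, with 116, 88.7-fold lower. The other 5 were at least 145-fold to at least 155-fold lower.

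**Figure D3:**
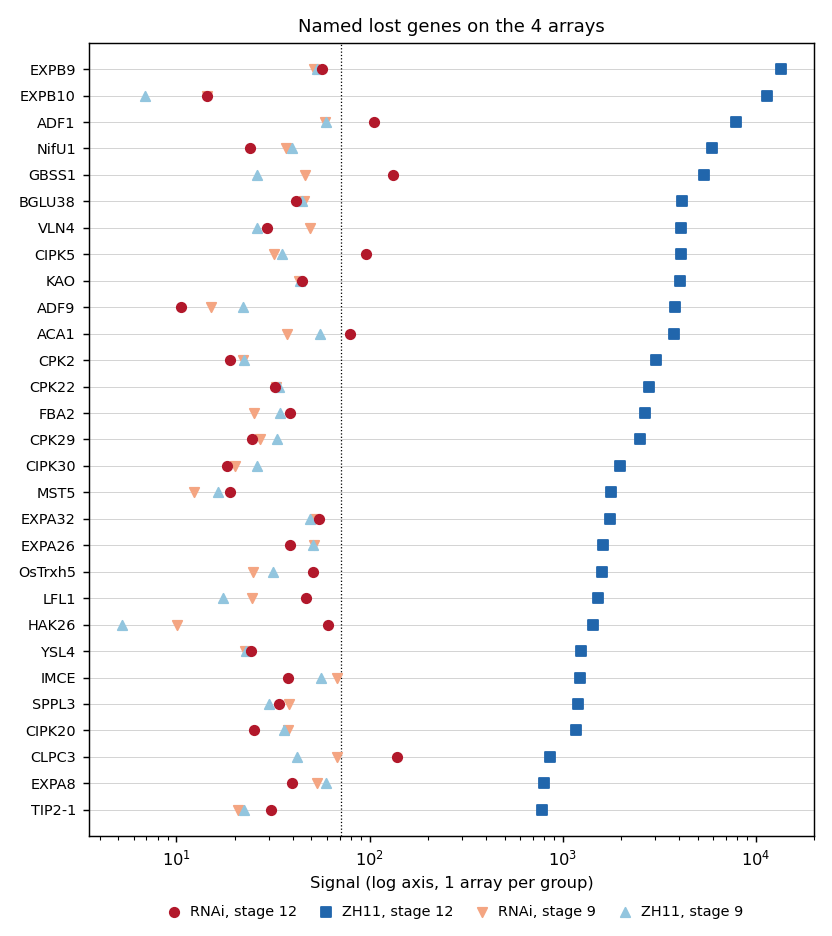
Signal (log axis) of the 29 named lost genes on the 4 arrays, 1 row per gene, with the dotted line at the floor of 71. In every row the ZH11 stage 12 array lies far to the right, at 777 to 13529, and the RNAi stage 12 array lies with the stage 9 arrays, above the floor in ADF1, GBSS1, CIPK5, ACA1 and CLPC3.

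Expansins of the cell wall gave 5 of the named lost genes. They loosen the wall without cutting its polymers, and the beta class includes the pollen allergens of grasses. EXPB9 had 56.4 in RNAi and 13529 in ZH11 at stage 12, and 51.8 in RNAi and 53.4 in ZH11 at stage 9. EXPB10 had 14.4 in RNAi and 11378 in ZH11 at stage 12, and 14.4 in RNAi and 6.84 in ZH11 at stage 9. Both were bright on the ZH11 stage 12 array alone, lower in RNAi by at least 191-fold and by at least 160-fold.

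The other beta-expansins found by symbol did not share that pattern. Family members with only a locus number would not be among them. Of 11 measured, 2 were late-on and both were lost. At stage 12 EXPB2 was lower too, with 141 in RNAi and 497 in ZH11, and so was EXPB8, with 332 in RNAi and 674 in ZH11. EXPB3 was higher, with 3223 in RNAi and 1203 in ZH11. The list held 4 lower genes and 1 higher, 3 and 1 with arrays scaled to a common median. Its median log2 ratio was -0.35 over 10 genes above the floor, beside 0.02 over all genes.

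Alpha-expansins, which act on walls across the plant, gave 3 lost genes. EXPA32 had 54.9 in RNAi and 1745 in ZH11 at stage 12, EXPA26 had 38.7 in RNAi and 1619 in ZH11, and EXPA8 had 39.5 in RNAi and 795 in ZH11. On the stage 9 arrays the 3 genes lay between 49.3 and 59.7. They were lower in RNAi by at least 24.6-fold, by at least 22.8-fold and by at least 11.2-fold. Of 14 alpha-expansins measured these were the 3 late-on genes and also the 3 lower ones, and the median log2 ratio was 0.22. None was higher, or 1 after median scaling.

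Regulators of actin filaments were next. Actin-depolymerizing factors sever and disassemble filaments, and villins bundle them. ADF1 had 105 in RNAi and 7845 in ZH11 at stage 12, and 58.9 in RNAi and 59.1 in ZH11 at stage 9, which made it 74.7-fold lower in RNAi. ADF9 had 10.6 in RNAi and 3790 in ZH11 at stage 12, and 15.1 in RNAi and 22.1 in ZH11 at stage 9. The villin gene VLN4 had 29.3 in RNAi and 4091 in ZH11 at stage 12, and 49.0 in RNAi and 26.2 in ZH11 at stage 9. ADF1 kept a signal above the floor in RNAi, while ADF9 and VLN4 did not and were lower by at least 53.4-fold and by at least 57.6-fold.

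These were the 3 late-on genes among 27 measured actins, depolymerizing factors, villins and formins. In all, 6 of the 27 were lower and 1 was higher in RNAi at stage 12, 5 and 1 with arrays scaled to a common median. ADF6 met both stage 12 limits, with 50.3 in RNAi and 4751 in ZH11, and missed the set through a stage 9 signal of 82.4 in ZH11. The actin gene ACT1 was lower by 2.67-fold, with 4915 in RNAi and 13143 in ZH11. The 26 genes with a signal above the floor had a median log2 ratio of -0.04, and 0.11 with arrays scaled to a common median, so the list as a whole had no settled direction.

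Calcium signalling gave 7 lost genes from 3 lists of 20, 57 and 11 measured genes. Over the array 1.12% of the genes were lost. Among the calcium-dependent protein kinases, CPK2 had 18.9 in RNAi and 3027 in ZH11 at stage 12, and 22.1 in RNAi and 22.4 in ZH11 at stage 9. CPK22 had 32.5 in RNAi and 2779 in ZH11 at stage 12, and 32.8 in RNAi and 34.0 in ZH11 at stage 9. CPK29 had 24.7 in RNAi and 2510 in ZH11 at stage 12, and 27.2 in RNAi and 33.1 in ZH11 at stage 9. As the limits nearly require, the 3 kinases were at or below the floor on 3 arrays. They were lower in RNAi at stage 12 by at least 42.6-fold, by at least 39.1-fold and by at least 35.4-fold.

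The silenced gene belongs to the same family. Of 20 family members measured, the 3 late-on ones were all lost, 5 were lower and none was higher at stage 12. The other lower ones were OsCPK21, whose ZH11 signal was already high at stage 9, and CPK6, with 26.7 in RNAi and 1655 in ZH11 at stage 12 and a stage 9 signal of 73.8 in RNAi, just above the limit. These counts were the same with arrays scaled to a common median. The list's median log2 ratio was -0.03, and 0.13 with that scaling, so most of the family lay near equal signal. How far the construct's sequence matches other kinases of the family was not tested.

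CIPKs, kinases that are switched on by calcineurin B-like calcium sensors, gave another 3. CIPK5 had 96.2 in RNAi and 4073 in ZH11 at stage 12, and 31.9 in RNAi and 35.1 in ZH11 at stage 9. At stage 12 CIPK30 had 18.4 in RNAi and 1981 in ZH11, and CIPK20 had 25.2 in RNAi and 1175 in ZH11. CIPK5 was 42.3-fold lower, and the others were lower by at least 27.9-fold and by at least 16.5-fold. Among 57 calmodulins, calmodulin-like proteins, calcineurin B-like sensors and CIPKs, these were the 3 late-on genes, 7 were lower and 4 were higher at stage 12, with a median log2 ratio of 0.0029.

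The seventh was a pump. ACA1, of the calcium ATPases that move calcium out of the cytosol, had 78.9 in RNAi and 3751 in ZH11 at stage 12, and 37.3 in RNAi and 55.1 in ZH11 at stage 9. It was 47.5-fold lower in RNAi, and it was the single late-on and the single lower gene among 11 calcium channels and pumps. Over the other 10 none was higher, or 1 with arrays scaled to a common median.

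The starch list and the sugar list each held 1 lost gene. GBSS1, the granule-bound synthase that makes amylose, had 131 in RNAi and 5383 in ZH11 at stage 12, and 46.2 in RNAi and 26.0 in ZH11 at stage 9. It was 41.0-fold lower on this probe set, one of those marked as cross-matching, and 8.99-fold to 11.3-fold lower on 3 others. Without cross-matching probe sets its log2 ratio was -3.50, as the mean of all its probe sets it was -2.47, and on the weakest it was 0.18. MST5, a monosaccharide transporter, had 19.0 in RNAi and 1767 in ZH11 at stage 12, at least 24.9-fold lower. FBA2, of the fructose-bisphosphate aldolases of glycolysis, is on neither list and had 38.8 in RNAi and 2673 in ZH11, at least 37.7-fold lower.

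Around GBSS1 other starch genes were lower by less than GBSS1 was on its chosen probe set. Of 15 measured, 5 were lower in RNAi and none higher at stage 12, with a median log2 ratio of -0.60 over 12 genes above the floor, or of -0.44 after median scaling. The other 4 were MEX1, a maltose exporter of the plastid, 12.7-fold lower, the amylase gene AMY3D, 2.75-fold, and the disproportionating enzymes DPE1 and DPE2, 2.59-fold and 2.28-fold. On its other probe sets GBSS1 was lower by at most 11.3-fold, less than MEX1. AMY3D was late-on but stood at 567 in RNAi and 1560 in ZH11, between the limits. The list of 32 genes of sugar transport and first use (transporters, invertases, hexokinases) held 8 lower genes and 1 higher, 6 and 1 with arrays scaled to a common median, with a median log2 ratio of -0.30. MST5 was the single late-on gene there.

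Transport of ions, metals and water gave 3 more. At stage 12 HAK26, of a family of potassium transporters, had 61.1 in RNAi and 1439 in ZH11. YSL4, of the family that carries metals bound to nicotianamine, had 24.4 in RNAi and 1241 in ZH11. TIP2-1, an aquaporin of the vacuole membrane, had 30.8 in RNAi and 777 in ZH11. All were at or below the floor on the stage 9 arrays, and they were lower in RNAi by at least 20.3-fold, by at least 17.5-fold and by at least 10.9-fold at stage 12. Of 88 ion and metal transporters 12 were lower and 5 higher, and of 25 aquaporins 4 were lower and 1 was higher. YSL7 also met both stage 12 limits, with 69.4 in RNAi and 8205 in ZH11, but had 116 in RNAi and 131 in ZH11 at stage 9.

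The late-on genes of diterpene and gibberellin synthesis were 1 lost, 1 between the limits and 2 kept. KAO, the ent-kaurenoic acid oxidase of gibberellin synthesis, had 44.8 in RNAi and 4040 in ZH11 at stage 12, and 43.0 in RNAi and 43.7 in ZH11 at stage 9. It was at least 56.9-fold lower. CPS1, which makes ent-copalyl diphosphate at the entry to the pathway, had 232 in RNAi and 4120 in ZH11, 17.7-fold lower and between the limits. The other late-on genes of the list were kept: CPS2, a related synthase of the phytoalexin branch, had 1230 in RNAi and 671 in ZH11, and KS6 had 829 in RNAi and 595 in ZH11. Of 14 diterpene and gibberellin genes, 3 were lower and 2 higher, 3 and 3 with arrays scaled to a common median.

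The remaining named lost genes have separate roles. NifU1, of the scaffold proteins for iron-sulphur clusters, had 24.1 in RNAi and 5932 in ZH11 at stage 12, and 37.1 in RNAi and 39.9 in ZH11 at stage 9, at least 83.6-fold lower. That probe set is marked as matching several transcripts, and on the other one, which alone remains when such probe sets are left out, the log2 ratio was 0. BGLU38, of the beta-glucosidase family, had 41.8 in RNAi and 4141 in ZH11, and OsTrxh5, a thioredoxin of the h type, had 50.7 in RNAi and 1601 in ZH11. The second probe set of OsTrxh5 had 89.3 in RNAi and 53.9 in ZH11, a log2 ratio of 0.33 in the other direction. LFL1, a transcription factor with a B3 domain, had 46.8 in RNAi and 1527 in ZH11. BGLU38 was at least 58.3-fold lower, OsTrxh5 at least 22.5-fold on its first probe set and LFL1 at least 21.5-fold.

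The others were IMCE, SPPL3 and CLPC3. IMCE had 37.8 in RNAi and 1231 in ZH11, and SPPL3, of the signal peptide peptidase family, had 33.9 in RNAi and 1194 in ZH11. CLPC3, a chaperone of the Clp protease family, had 139 in RNAi and 863 in ZH11 at stage 12, and 68.1 in RNAi and 42.0 in ZH11 at stage 9. It had the highest RNAi signal of all lost genes and was 6.19-fold lower.

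Of the 20 gene lists, 13 held a lost gene and 4 held no late-on gene at all. The 22 listed lost genes came from lists of very different size, and the lists cover a small share of the array. The list of 132 transcription factors held no lost gene, and LFL1 is not on it, its symbol lying outside the patterns searched. In RNAi at stage 12, 5 of the 132 were lower and 13 higher, with a median log2 ratio of 0.26. With arrays scaled to a common median these were 5 and 15. The 1 late-on factor on the list, HOX24, was kept with 2543 in RNAi and 954 in ZH11. Lists of MAP kinases and of ROP GTPases with NADPH oxidases, which work in pollen tubes, had no late-on gene among 17 and 8 measured. At stage 12, 3 of the 17 were lower and 1 was higher in RNAi, and 1 of the 8 was lower.

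**Figure D4:**
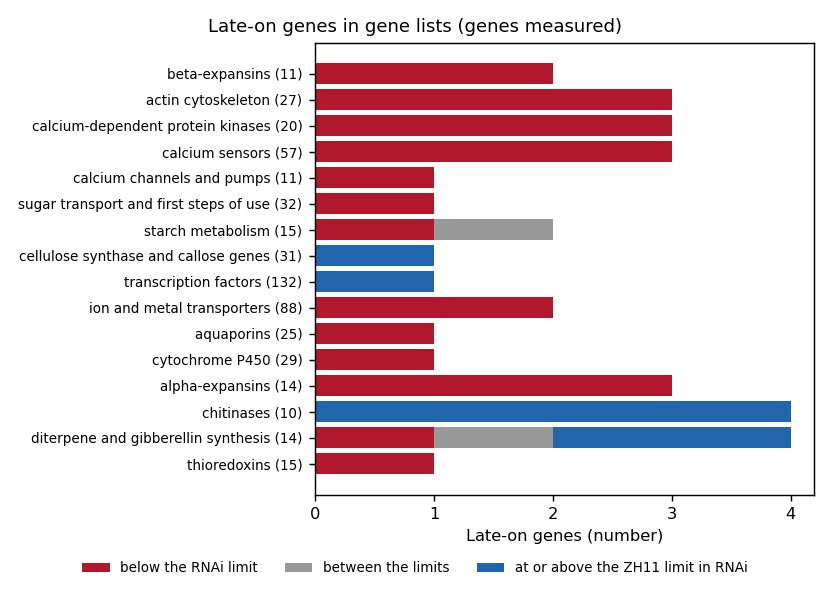
Late-on genes (horizontal, number) in each gene list that has any, with the number of genes measured in brackets, coloured by RNAi signal at stage 12: below 142 (lost), between the limits, and 568 or more (kept). Expansins, actin genes and calcium genes hold lost genes alone, chitinases hold 4 kept genes and no lost gene, and diterpene and gibberellin genes hold all 3 classes.

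Chitinases, which cut the chitin of fungal walls, stood on the other side. All 4 late-on genes among 10 measured were kept. Cht4 had 3869 in RNAi and 1943 in ZH11 at stage 12, Cht5 had 2870 in RNAi and 1344 in ZH11, and Cht2 had 2407 in RNAi and 2191 in ZH11. In the list 3 genes were higher in RNAi and none was lower, 5 and 0 with arrays scaled to a common median. Other named kept genes with a high RNAi signal were BURP17, with 2487 in RNAi and 919 in ZH11, CSLF2, of the cellulose synthase-like family, with 2094 in RNAi and 1711 in ZH11, AtMAP70-4, with 1815 in RNAi and 1593 in ZH11, and PXG, with 1562 in RNAi and 1454 in ZH11.

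Marker genes for cell types gave the setting of the lost genes in the whole spikelet. Of 10 late pollen markers 7 were measured, and 4 of these (EXPB9, EXPB10, ADF1 and ADF9) are lost genes, so the list is not independent of them. All 7 were lower in RNAi at stage 12, and their summed signal was 424 in RNAi and 46757 in ZH11 at stage 12, and 434 in RNAi and 449 in ZH11 at stage 9. The 3 that are not lost genes, ADF6, RTS and the sugar transporter gene SWEET5, also met both stage 12 limits. They missed the set at the stage 9 limit alone, so they are no separate check on the lost genes. RTS had 75.7 in RNAi and 1603 in ZH11, and SWEET5 had 111 in RNAi and 3860 in ZH11. As a gene of anthers, RTS may not be particular to pollen. In RNAi at stage 12 EXPB9, EXPB10, ADF6 and ADF9 were at or below the floor.

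Markers of spikelet organs and green tissue did not fall with them. The 13 organ identity and spikelet genes summed to 65514 in RNAi and 61397 in ZH11 at stage 12, and 0 of them were lower or higher. The 4 green tissue genes summed to 7515 in RNAi and 6994 in ZH11, again with 0 lower or higher. The 9 tapetum markers measured summed to 3370 in RNAi and 1623 in ZH11 at stage 12, against 29354 in RNAi and 48993 in ZH11 at stage 9, and 1 was lower (OsC6) and 1 higher (RAFTIN1) in RNAi at stage 12. RAFTIN1 alone had 2149 in RNAi and 199 in ZH11. The part of pollen number or pollen stage in the lost genes was not tested.

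**Figure D5:**
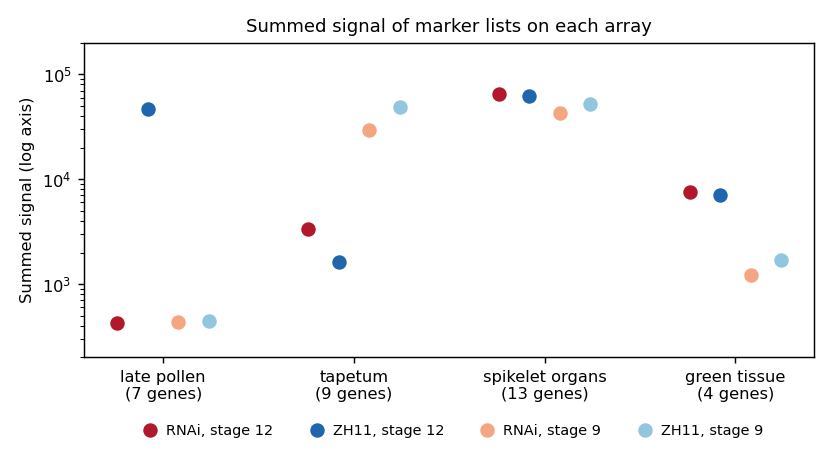
Summed signal (vertical, log axis) of 4 marker lists on each array, 1 point per array, with the stage 12 arrays left of the stage 9 arrays in each list. The late pollen sum is 46757 on the ZH11 stage 12 array and 424 to 449 on the other 3, while the spikelet organ sums lie between 42885 and 65514.

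Most lost genes were read once. For 189 of the 200 the array has 1 probe set, and 11 have 17 further ones. These were hybridised on the same arrays, so they repeat the reading and not the sample. Of the 17, 10 were above 142 in ZH11 at stage 12. All 10 were lower in RNAi, by 6.51-fold to 38.3-fold with bounds counted at their value. They belong to 7 lost genes. Sorting by the ZH11 signal favours probe sets that are lower in RNAi, so that count is no independent check. VLN4 had 28.8 in RNAi and 870 in ZH11 on its second probe set, at least 12.2-fold lower, and TIP2-1 had 16.6 in RNAi and 496 in ZH11, at least 6.99-fold lower. Of the 5 further probe sets of GBSS1, 3 had 71.1 to 74.5 in RNAi and 639 to 832 in ZH11, and the other 2 had at most 87.3 on any array.

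The remaining 7 probe sets had at most 142 in ZH11 at stage 12, so they show no signal to lose. Of these 2 belong to GBSS1, and the other 5 are the only further probe sets of NifU1, OsTrxh5, LOC4330830 and LOC4345610. For NifU1 the second probe set had 6.52 in RNAi and 15.1 in ZH11 beside 24.1 in RNAi and 5932 in ZH11 on the first, so the pattern of these 4 genes rests on 1 of their probe sets. Probe sets designed to match 1 transcript, by the suffix of their name, read 94.5% of the lost genes and 82.9% of all genes.

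The lost genes were spread over all 12 chromosomes, with 0.936% of the measured genes of chromosome 9 and 1.42% of those of chromosome 11 at the ends of the range. Some lay next to each other. Within 3 steps in the order of annotated genes, 22 of the 200 formed 10 runs of 2 or 3. Among the 87 kept genes, 8 formed 4 runs. Whether either count exceeds that of genes drawn at large was not tested. EXPB10 follows LOC4331323, with 56.9 in RNAi and 11039 in ZH11, so a pair of the 5 lost genes with the highest ZH11 signal are neighbours. LOC4335465 and LOC4335467 are adjacent as well, with 19.7 and 14.6 in RNAi, and with 8221 and 10994 in ZH11. The longest runs were LOC4327992, LOC4327994 and LOC4327996, and LOC4339043, LOC4339045 and LOC4339048. Cross-matching between neighbouring copies was not tested.

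Neighbours were not always of the same class. JAMYB, a MYB factor gene, was kept with 1056 in RNAi and 1625 in ZH11, and it lies beside LOC4351130, with 17.8 in RNAi and 4595 in ZH11, and LOC4351129, with 19.2 in RNAi and 3454 in ZH11. The runs of kept genes include Cht4 with Cht5 and CPS2 with KS6.

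The limits cut through a continuum in places. Just inside the ZH11 limit lay LOC4336765 with 571, LOC4345285 with 597 and LOC4330830 with 608 in ZH11. Just outside lay LOC4351470 with 565, LOC4348806 with 564 and LOC4338074 with 563. Just inside the RNAi limit lay CLPC3 with 139, LOC4327751 with 136 and GBSS1 with 131 in RNAi, and just outside LOC4327957 and LOC4341937 with 147 and LOC4339811 with 153. Few genes stood near the RNAi limit, whereas the ZH11 limit falls among closely spaced signals.

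At the stage 9 limit the highest stage 9 signals of lost genes were 70.9 in LOC4352877, 70.8 in LOC4334322 and 70.3 in LOC4339048. Just above it were LOC107278135 with 71.7, and ILL2 and LOC4333569 with 72.8. In all, 101 further genes met both stage 12 limits and missed the stage 9 limit. Named ones include YSL7, ADF6, SWEET5, CPK6, RTS and MPK17, a MAP kinase with 106 in RNAi and 3255 in ZH11 at stage 12.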

How the data were processed

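Spikelet RNA was measured on 4 arrays, 1 per group, from total RNA (500 ng) made into biotin-labelled cRNA, per the labels' protocols. The deposited values are linear intensities, a MAS5 signal for each probe set, per the submitters' processing notes. No version of MAS5, scaling target or detection call was given in the sources used here, so the floor of 71 stands in for detection and may lie above or below it. The deposited scale was kept.

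Of 57381 probe sets, 22436 carry 1 gene in the platform annotation and 95 several; the 123 controls and all probe sets without a single gene were left out. The 17905 genes were all found in the RefSeq table of assembly ASM3414082v1, used for names and gene order. Ratios were taken on the log2 scale after raising signals to 71, with Python 3.11.15, pandas 2.3.3 and numpy 2.4.6, and the selection was tested on simulated data.

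The genes described one by one were all lost genes with a name, the 10 brightest in ZH11, the 3 nearest each limit on both sides, and up to 8 named kept genes. Further genes of a list were chosen after their values were seen. The lost genes and the lists were chosen with earlier results of these data known. Lists match symbols and were trimmed by alias, and 4 of the 20 (alpha-expansins, chitinases, diterpene and gibberellin synthesis, thioredoxins) were added later. No sequences are printed. Alternatives changed the scaling, the probe set rule, the limits and the floor.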

Additional observations from a re-analysis of the deposited data

Results flagged for a closer look

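A signal of the same kind appeared in probe sets that the comparisons above do not use. Among 34822 probe sets with several annotated genes or none, 133 were at most 71 on both stage 9 arrays and at least 568 in ZH11 at stage 12. Of these, 95 (71.4%) were also below 142 in RNAi at stage 12, and 88 of them were at or below 71 there. Their signals at stage 12 had a median of 32.7 in RNAi (4.05 to 132) and 1636 in ZH11 (579 to 17137). The same limits on the same arrays picked them, so these signals follow from the choice. With the genotypes exchanged, 46 such probe sets were late-on by the RNAi signal, and 1 of them was below 142 in ZH11. No gene is named for these probe sets here.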

How the results depend on the processing

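With other scalings of the arrays (common median, quantile) and other probe set rules, the lost genes numbered 193 to 199, against 200. Of the late-on genes 61.3% to 65.6% were lost, against 62.3%, and the median log2 ratio was -5.21 to -5.12, against -5.15. Limits 1.5 times stricter gave 126 lost genes and a share of 70.4%. Limits 1.5 times looser gave a share of 54.3% and a median of -4.47, with 296 lost genes. Doubling the floor gave a median of -4.21, as the bounds then stop at a higher signal. For the 29 named lost genes and the 8 others among the 10 highest ZH11 signals (37 genes), 255 of 259 values remained at least 2-fold lower in RNAi. The limits had fixed that direction, and the probe set rules leave a gene with 1 probe set unchanged. That count was therefore largely set in advance. The log2 ratio reversed on the weakest probe set of GBSS1 (0.18) and OsTrxh5 (0.33), each dim on both stage 12 arrays, and was 0 for NifU1 without cross-matching probe sets; the cause was not tested. Scaling to a common median moved ratios with both stage 12 signals above the floor by 0.15 on the log2 scale. No paired analysis was possible because each group has 1 array, and no replicate could be left out. With 1 array per group, low signals limit the ratios to bounds.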
